A study of Mus musculus with 6 samples.

Results

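Mitochondrial ribosomal proteins were examined in mouse liver-derived cells that carried a Prox1 expression construct, set against cells with the empty vector. The members were all array features whose platform annotation gave exactly 1 gene symbol that starts with Mrpl or Mrps followed by a digit. This rule found 132 features of 78 genes, among 44290 features on the array, of which 41230 had a value; all 132 members had one. There were 83 Mrpl features of 49 genes and 49 Mrps features of 29 genes. Symbols do not follow the subunits exactly: by their place in the ribosome 51 genes (85 features) belong to the large subunit, Mrps18a and Mrps30 among them, and 26 genes (45 features) to the small subunit. Mrps36, with 2 features, was named as a ribosomal protein and later assigned to the 2-oxoglutarate dehydrogenase complex, so it was kept apart. A feature shared by Mrps25 and another gene carries several symbols and was left out.

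The cells were MMH, a line whose name stands for Met murine hepatocytes, and the titles of all samples give embryonic day 14. Each 2-colour array compared RNA of MMH-Prox1 cells with RNA of MMH-pCDNA3.1 cells, the same line with the empty plasmid. Prox1 is a homeobox transcription factor of the early liver. On 3 arrays (replicates 1 to 3) the Prox1 RNA was labelled with Cy5 and on 3 (replicates 4 to 6) with Cy3. Nothing in the labels says whether replicates came from separate cultures, or whether the cells were a clone or a pool, so p-values cover the spread between arrays alone, and this may be technical. A ratio of 2 RNAs gives no level, so hepatoblast markers could not be checked for presence. In bulk RNA of this kind, fewer cells of a type and less RNA per cell cannot be told apart.

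The mitochondrial ribosome translates the few proteins that mitochondrial DNA encodes, all of them parts of the respiratory chain and of ATP synthase. Its ribosomal RNAs come from mitochondrial DNA, whereas all of its proteins come from nuclear genes and are imported. Many of these proteins descend from those of bacterial ribosomes and others are mitochondrial additions. In liver, oxidative metabolism depends on this translation.

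The deposited values are scores, signed ratios that look logarithmic, with an SD of 1 over the features of each column, so they order changes within an array but give no fold change. Their direction is not stated; a positive score likely means more RNA in Prox1 cells. The Prox1 feature 42326 scored 5.44, 5.22 and 5.17 on the Cy5 arrays and 6.60 in the Cy3 profile, which put it at rank 4 of 41230 by fitted effect, while the other Prox1 features had fitted effects of 0.09 and −0.16 and were not called. The 3 Cy3 columns are identical (0 features differ) and count as 1 profile, so there were 4 distinct profiles and the Cy3 orientation has no error of its own. Over all features the 3 Cy5 arrays correlated at 0.915 to 0.930, and each correlated with the Cy3 profile at 0.397 to 0.444. The column medians were 0.060, 0.055 and 0.058 in Cy5 and −0.020 in Cy3.

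The score of the members leaned above 0 in both orientations, by less than the width of their own distribution. With Prox1 in Cy5 the median over the 132 features was 0.217 (0.259, 0.172 and 0.245 on the single arrays), beside 0.056 over all features with a value. With Prox1 in Cy3 it was 0.299, beside −0.020 over all features. The quartiles of the members were −0.322 and 0.657 in Cy5 and −0.161 and 1.12 in Cy3, so both orientations hold many members below 0. In Cy5 84 members (63.6%) lay above 0, beside 54.9% of all features, and in Cy3 87 members (65.9%), beside 48.2%. Members are not replicates, and these shares are descriptions with no test.

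The orientations often disagreed on a member. Of the 132 features 59 were above 0 in both and 20 below 0 in both, while 25 were above 0 in Cy5 and below 0 in Cy3, and 28 the other way round. Opposite signs were thus found in 40.2% of the members, beside 47.2% of all features. Across members the 2 orientations correlated at 0.511 (n = 132), beside 0.425 across all features; the points share arrays and are not independent. All 4 profiles were above 0 for 44 members, 33.3% of them beside 21.7% of all features, and below 0 for 19, 14.4% beside 19.4%.

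**Figure D1:**
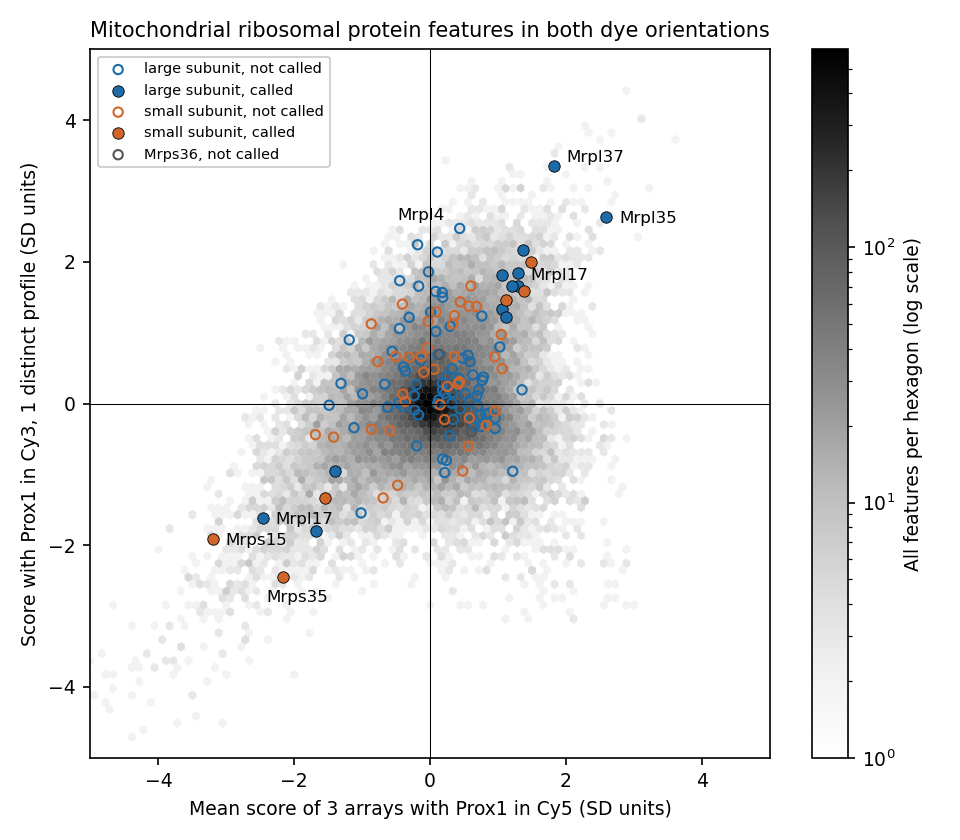
Each circle is 1 of the 132 features, placed by its mean score on the 3 arrays with Prox1 in Cy5 (horizontal, SD units) and its score in the 1 distinct profile with Prox1 in Cy3 (vertical, SD units); blue is the large subunit, orange the small subunit, grey Mrps36, and filled circles are called at an adjusted p below 0.05. Grey hexagons count all features on a log scale, a few of which lie beyond the axes; the 12 filled circles at the upper right and the 6 at the lower left have the same sign in both orientations.

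Prox1 effects were tested with limma on the 4 distinct profiles with dye orientation as a random block, and p-values were adjusted over all 41230 features by Benjamini-Hochberg. The fitted effect is given in score units with its SE. At an adjusted p below 0.05, 18 members of 17 genes were called: 12 higher and 6 lower in Prox1 cells. These are 13.6% of the members, beside 7.66% of all features; higher calls took 9.09% of the members, beside 3.08% of all features, and lower calls 4.55%, beside 4.58%. The other 114 members were not called, and 36 members (27.3%) had an unadjusted p below 0.05, beside 20% of all features. The calls rest on how the orientations are weighed: limma with a dye term called 60 members higher, beside 25.4% of all features, and 20 lower, beside 19.7%, whereas with the orientation means as 2 replicates it called 0, with 24 (18.2%) at an unadjusted p below 0.05, beside 13.3% of all features. Without Cy5 replicate 1, 2 or 3, it called 4, 7 or 2 members higher and 4, 5 or 4 lower, while the share called over all features was 3.77%, 3.94% or 3.53%.

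The large subunit held 9 of the features called higher. Mrpl35, a protein with a bacterial homologue that is small and basic in bacteria, scored 2.57, 2.43 and 2.78 in Cy5 and 2.64 in Cy3 at feature 16659, for an effect of 2.61 ± 0.25 (SE, adjusted p = 0.0036). All 4 profiles lay within a narrow band, and this was the highest effect among the members. Mrpl37, a mitochondrial addition to the large subunit, scored 1.94, 1.56 and 1.95 in Cy5 and 3.35 in Cy3 (effect 2.53 ± 0.42, adjusted p = 0.020). The Cy3 profile stood above all 3 Cy5 arrays here, and the orientations differed by −1.54 ± 0.22 (Cy5 minus Cy3, SE, adjusted p = 0.0038 in the limma test of the dye term). That test takes its error from the Cy5 arrays alone. Mrpl9, the counterpart of bacterial L9, scored 1.41, 1.35 and 1.34 in Cy5 and 2.17 in Cy3 (effect 1.74 ± 0.26, adjusted p = 0.015). It too was higher in Cy3 than on any Cy5 array.

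Other features called higher in the large subunit had effects between 1.1 and 1.6. Mrpl17, whose bacterial counterpart sits near the exit of the nascent chain tunnel, scored 1.39, 1.17 and 1.33 in Cy5 and 1.84 in Cy3 at feature 4328 (effect 1.55 ± 0.25, adjusted p = 0.019). Mrpl21, with a bacterial homologue, scored 1.28, 1.29 and 1.31 in Cy5 and 1.66 in Cy3 (effect 1.46 ± 0.22, adjusted p = 0.015). In both the Cy5 arrays lay below the Cy3 profile. Mrpl34, with a bacterial homologue, scored 1.30, 1.02 and 1.29 in Cy5 and 1.66 in Cy3 (effect 1.42 ± 0.26, adjusted p = 0.029). Mrpl24, whose bacterial counterpart starts the assembly of the large subunit, scored 1.14, 0.97 and 1.07 in Cy5 and 1.33 in Cy3 (effect 1.19 ± 0.22, adjusted p = 0.031). For Mrpl34 and Mrpl24 the Cy5 arrays again lay below the Cy3 profile, and the test of the dye term passed for none of the 4 features given in this paragraph.

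Mrps18a is 1 of 3 mammalian paralogues of bacterial S18 and sits in the large subunit. It scored 0.99, 0.95 and 1.24 in Cy5 and 1.82 in Cy3 (effect 1.41 ± 0.29, adjusted p = 0.039). Mrpl45, which anchors the ribosome to the inner membrane near the tunnel exit, scored 1.01, 1.07 and 1.29 in Cy5 and 1.21 in Cy3 at feature 21598 (effect 1.17 ± 0.24, adjusted p = 0.040). The Cy3 profile was above all Cy5 arrays for Mrps18a and among them for Mrpl45.

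In the small subunit 3 features were called higher, all of proteins with bacterial homologues. Mrps17, whose bacterial counterpart binds 16S ribosomal RNA early in assembly, scored 1.47, 1.53 and 1.45 in Cy5 and 1.99 in Cy3 at feature 22799 (effect 1.72 ± 0.23, adjusted p = 0.010). Mrps7, whose counterpart organises the head of the bacterial small subunit, scored 1.19, 1.45 and 1.51 in Cy5 and 1.59 in Cy3 at feature 5166 (effect 1.48 ± 0.25, adjusted p = 0.023). Mrps5, whose counterpart lies where mRNA enters the bacterial ribosome, scored 1.16, 1.16 and 1.03 in Cy5 and 1.46 in Cy3 at feature 34369 (effect 1.27 ± 0.23, adjusted p = 0.025). The Cy3 profile was the highest of the 4 for each of these 3 features.

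Among the 6 features called lower, 3 were of the small subunit. Mrps15, whose bacterial counterpart binds the central domain of 16S ribosomal RNA, scored −3.28, −3.26 and −3.07 in Cy5 and −1.90 in Cy3 at feature 23373 (effect −2.60 ± 0.35, adjusted p = 0.0099). This was the lowest member by fitted effect and in Cy5, and the Cy3 profile was less low than every Cy5 array. Mrps35, a mitochondrial addition to the small subunit, scored −2.11, −2.25 and −2.15 in Cy5 and −2.45 in Cy3, the lowest member there (effect −2.30 ± 0.22, adjusted p = 0.0036). Mrps2, with a bacterial homologue, scored −1.75, −1.23 and −1.64 in Cy5 and −1.33 in Cy3 at feature 36578 (effect −1.44 ± 0.31, adjusted p = 0.046). For Mrps2 the Cy3 profile lay within the range of the Cy5 arrays, and for Mrps35 below all 3.

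The lower features of the large subunit were those of Mrpl17, Mrpl38 and Mrpl54. Feature 19849 of Mrpl17 scored −2.44, −2.42 and −2.50 in Cy5 and −1.61 in Cy3 (effect −2.06 ± 0.27, adjusted p = 0.0093), against the positive scores of the other feature of this gene above. Mrpl38, a mitochondrial addition, scored −1.64, −1.76 and −1.64 in Cy5 and −1.80 in Cy3 at feature 11554 (effect −1.74 ± 0.22, adjusted p = 0.0081). Mrpl54, also a mitochondrial addition, scored −1.37, −1.37 and −1.48 in Cy5 and −0.95 in Cy3 (effect −1.19 ± 0.23, adjusted p = 0.033). Among these 3 features, only Mrpl38 was lower in Cy3 than on every Cy5 array.

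**Figure D2:**
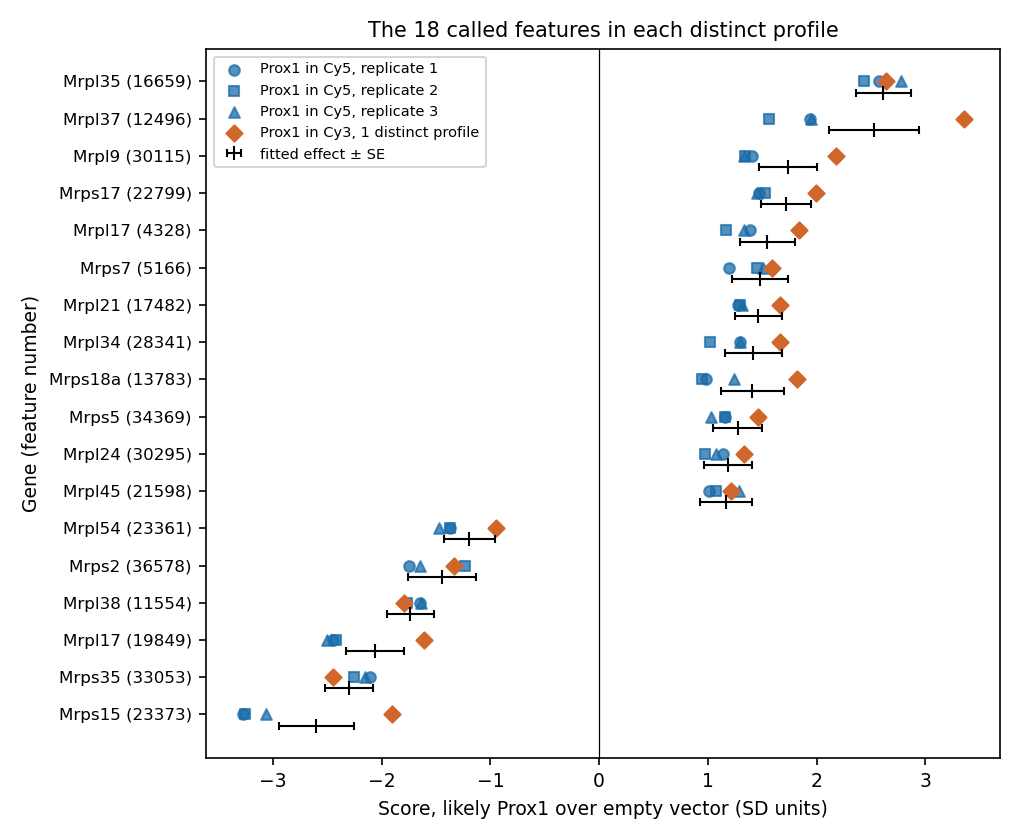
Scores (horizontal, SD units) of the 18 called features, 1 line each, with 3 blue symbols for the arrays with Prox1 in Cy5, an orange diamond for the 1 distinct profile with Prox1 in Cy3, and below them a black tick and bar for the fitted effect ± SE. The 12 higher features have all 4 symbols right of 0 and the 6 lower ones all 4 left of it; the gap between blue and orange is widest for Mrpl37 and Mrps15.

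The promoters of the members share sequence features that the scores did not choose. RefSeq (GRCm38.p6) promoters, from 250 bases before to 50 after the start, were found for 69 of the 78 genes and for 17491 protein-coding genes in all. On either strand the ETS motif CCGGAAG was in 26 member promoters (37.7%), beside 12.9% of all. The NRF1 motif (GCGCA, any base, then GCGC) was in 13 (18.8%), beside 7.17%, and the YY1 motif AAGATGGCG in 8 (11.6%), beside 2.14%. At least 1 of these was in 41 (59.4%), beside 20% of all, whereas the E-box CACGTG, which MYC can bind, was in 5 (7.25%), beside 8.91%. Of the 12 genes called higher with a promoter in the table, 4 held the ETS motif, 3 the NRF1 motif and 3 the YY1 motif. Of the 6 genes called lower only 3 had a promoter there, with 1, 1 and 0. Mrpl17, with a feature called in each direction, is counted in both groups, and the NRF1 match among the genes called lower is its own. A match is a description of letters and not a binding site.

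The sequences below are the bases just before the start of genes whose features were called, chosen because no other annotated gene overlaps them, with the motifs above in capitals; they are shown in 5′ to 3′ direction of the gene. Mrpl17 holds the NRF1 letters, Mrpl34 and Mrps18a hold the ETS letters, and Mrpl35, Mrps5 and Mrps15 hold none of the 4 motifs in this stretch.
Mrpl35, chr6:71823785-71823934, minus strand: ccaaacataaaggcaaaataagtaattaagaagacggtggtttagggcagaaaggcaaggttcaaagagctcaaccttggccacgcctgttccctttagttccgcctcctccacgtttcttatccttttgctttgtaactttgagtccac
Mrpl17, chr7:105811088-105811237, minus strand: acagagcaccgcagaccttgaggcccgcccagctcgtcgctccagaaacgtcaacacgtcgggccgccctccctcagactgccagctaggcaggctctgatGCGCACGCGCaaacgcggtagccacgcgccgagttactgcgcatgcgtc
Mrpl34, chr8:71464776-71464925, plus strand: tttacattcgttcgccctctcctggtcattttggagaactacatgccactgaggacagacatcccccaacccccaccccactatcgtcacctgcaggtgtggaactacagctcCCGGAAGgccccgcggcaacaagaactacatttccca
Mrps18a, chr17:46110854-46111003, plus strand: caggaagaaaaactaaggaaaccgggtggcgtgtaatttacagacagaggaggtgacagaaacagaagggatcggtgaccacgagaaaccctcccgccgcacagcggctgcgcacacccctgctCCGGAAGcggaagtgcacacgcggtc
Mrps5, chr2:127587276-127587425, plus strand: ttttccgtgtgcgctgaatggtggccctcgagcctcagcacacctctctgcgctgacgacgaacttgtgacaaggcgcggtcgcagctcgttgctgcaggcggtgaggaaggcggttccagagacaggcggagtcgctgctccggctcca
Mrps15, chr4:126046778-126046927, plus strand: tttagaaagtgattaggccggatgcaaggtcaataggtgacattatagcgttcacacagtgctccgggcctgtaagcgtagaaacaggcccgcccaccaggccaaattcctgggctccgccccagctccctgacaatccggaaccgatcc

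By subunit, the 85 large-subunit features had 9 higher and 3 lower calls, with medians of 0.238 in Cy5 and 0.273 in Cy3. The 45 small-subunit features had 3 and 3, with medians of 0.147 and 0.484. Calls took 14.1% of the large-subunit and 13.3% of the small-subunit features, beside 7.66% of all features (3.08% higher, 4.58% lower). By descent, 79 features of proteins with bacterial homologues had 10 higher and 3 lower calls (medians 0.295 in Cy5 and 0.442 in Cy3). The 53 features of mitochondrial additions, Mrps36 included, had 2 higher and 3 lower calls (medians 0.124 and 0.273). Calls took 16.5% of the features with bacterial homologues and 9.43% of the mitochondrial additions. The differences between these classes were not tested.

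Proteins with landmark roles in the ribosome were mostly not called, which is not particular to them. Of the 132 members 114 were not called, and 7.66% of all features were called. The stalk that recruits translation factors holds Mrpl10, Mrpl11 and Mrpl12, the last of which also binds the mitochondrial RNA polymerase. Mrpl10 scored 0.17, 0.06 and 0.49 in Cy5 and −0.80 in Cy3, so the orientations had opposite signs (difference 1.04 ± 0.22, SE, adjusted p = 0.013 for the dye term). Mrpl11 had effects of 0.40 ± 0.32 and 0.37 ± 0.42 (SE) at its 2 features, each positive on all 3 Cy5 arrays and slightly negative in Cy3. Mrpl12 scored −0.27, −0.78 and −0.34 in Cy5 and 0.01 in Cy3. No stalk protein thus had 1 sign in all 4 profiles.

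At the decoding centre, Mrps12 scored 0.40, 0.35 and 0.54 in Cy5 and 0.31 in Cy3 (effect 0.37 ± 0.22, adjusted p = 0.48), positive throughout. Of the S18 paralogues, Mrps18b and Mrps18c belong to the small subunit. Mrps18b averaged −0.03 ± 0.16, −0.31 ± 0.11 and −0.40 ± 0.13 in Cy5 at its 3 features (SD, n = 3 arrays), with 1.16, 0.65 and 0.13 in Cy3. The first of these features lay on both sides of 0 among the Cy5 arrays, and the others were negative on all 3. Mrps18c averaged 0.83 and 0.58 in Cy5 at its 2 features, with −0.31 and −0.20 in Cy3. Mrps18a was thus the one paralogue called, and the paralogues were not compared by a test.

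Mrpl58 is a peptidyl-tRNA hydrolase built into the large subunit that releases stalled chains; it scored −0.64, −0.58 and −0.65 in Cy5 and −0.05 in Cy3 and was not called (adjusted p = 0.55). Mrps30, a large-subunit protein despite its symbol, scored 0.21, 0.01 and 0.11 in Cy5 and about 0 in Cy3 (effect 0.06 ± 0.22). Mrpl44, which has an RNase III fold, had effects of 0.56, 0.40 and 0.21 at its 3 features, of which only feature 10061 was positive in both orientations. Mrps36 averaged 0.14 and 0.61 in Cy5 at its 2 features, with 0.70 and −0.40 in Cy3.

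Mrps22, Mrps27 and Mrps34 are mitochondrial additions to the small subunit; in humans, variants of MRPS22 and MRPS34 cause respiratory chain disease, and Mrps27 is a pentatricopeptide repeat protein. Mrps22 scored 0.32, 0.38 and 0.37 in Cy5 and 1.24 in Cy3 (effect 0.77 ± 0.27, adjusted p = 0.18). Mrps27 was near 0 in Cy5, with a mean of 0.09 ± 0.09 (SD, n = 3 arrays), and scored 1.29 in Cy3. Mrps34 was negative in all 4 profiles, at −0.65, −0.49 and −0.29 in Cy5 and −1.15 in Cy3 (effect −0.79 ± 0.29, adjusted p = 0.19). Mrpl4, with a bacterial homologue, was the third highest member in Cy3 at 2.47 but averaged 0.44 ± 0.25 (SD, n = 3 arrays) in Cy5, and was not called.

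Features of the same gene often differed in score. Of the 78 genes 37 had more than 1 feature, with up to 4; in 26 of them the fitted effects had the same sign and in 11 both signs occurred. The median range within a gene was 0.409 score units and the widest, for Mrpl17, 3.61, between features called in opposite directions. Of the 9 called genes with several features, 0 had all their features called in 1 direction, while the other 8 called genes had 1 feature each. The platform annotation names a sequence record for a feature but not its position. Both Mrpl17 features carry the same record. Features 16659 and 3353 of Mrpl35 also share a record, while feature 14174 carries another. By symbols formed from a member's name, RefSeq lists 6 pseudogenes of 4 member genes (Mrpl23, Mrpl27, Mrpl48 and Mrps36), none of which was called. Pseudogenes under other symbols were not searched, so whether the called genes have any is not known.

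After Mrpl17 the widest ranges were those of Mrps15 and Mrpl35. The second Mrps15 feature scored −0.54, −0.72 and −1.06 in Cy5 and 0.59 in Cy3 (effect −0.14 ± 0.41, adjusted p = 0.99). The other Mrpl35 features were positive in Cy5, averaging 1.35 ± 0.23 and 0.70 ± 0.10 (SD, n = 3 arrays), with 0.19 and −0.03 in Cy3. Of 4 Mrps5 features, 3 were positive in all profiles, with effects of 1.27, 1.09 and 1.0, while the other had 0.15. Averaging the features of a gene before the test left 8 genes called higher and 3 lower, the lower ones being Mrps35, Mrpl54 and Mrpl38, with 8.41% of 28617 gene means and unnamed features called.

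**Figure D3:**
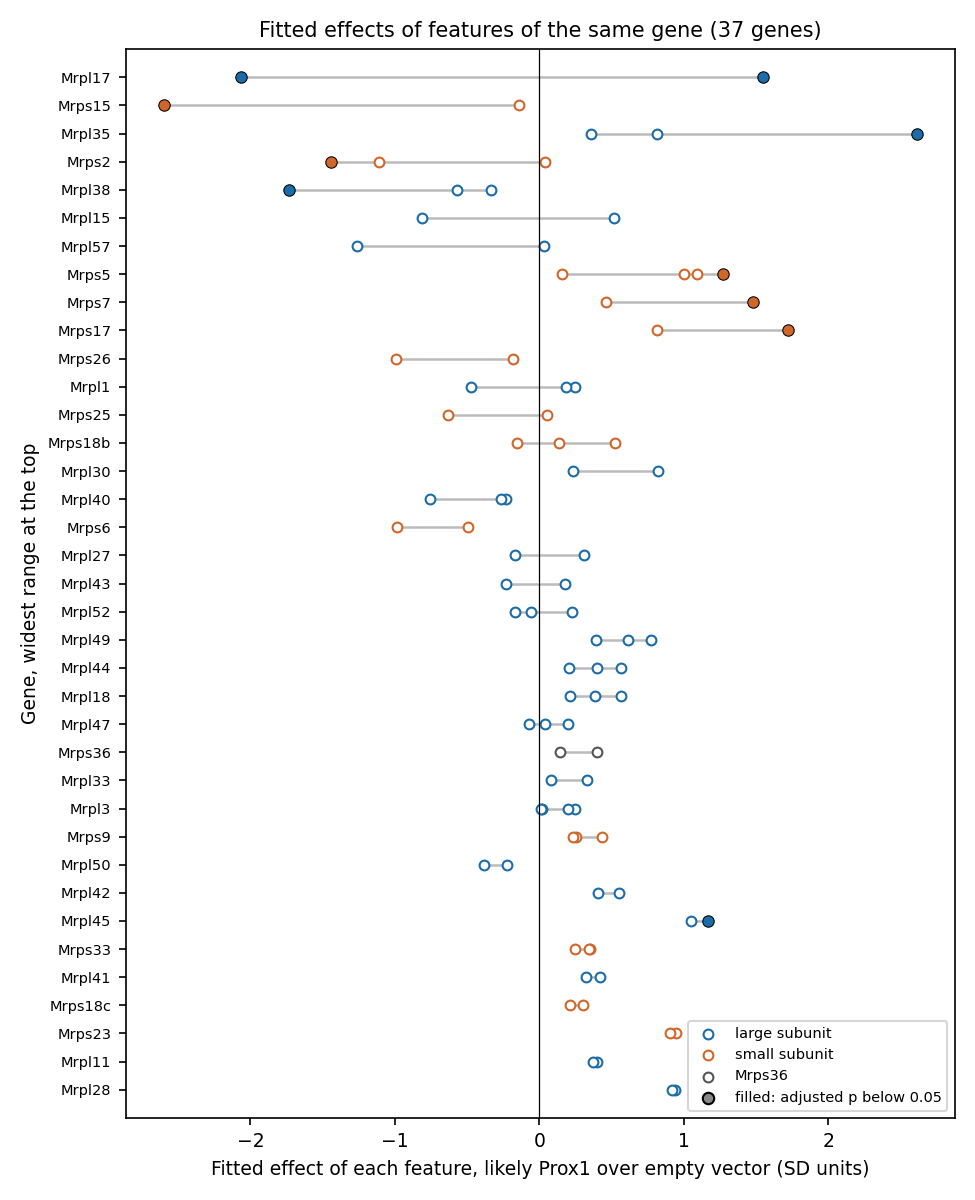
Fitted effects (horizontal, SD units) of the features of the 37 genes with more than 1 feature, 1 line per gene with the widest range at the top; blue is the large subunit, orange the small subunit, grey Mrps36, and filled points have an adjusted p below 0.05. Mrpl17 has a filled point on each side of 0, 3.61 apart, and most other genes span less than 1.

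The test of the dye term asked whether orientation changed a member's score. It passed for 69 of the 132 members (52.3%), beside 40.7% of all features. In 24 of them the Cy5 mean was above the Cy3 score, and in 45 below it, beside 20% and 20.7% of all features. In 42 of the 69 the signs were opposite. Mrpl18, a 5S ribosomal RNA binding protein in bacteria, shows this in a single gene: feature 7170 scored 1.26, 0.90 and 1.49 in Cy5 and −0.96 in Cy3, whereas feature 43623 scored −0.06, −0.82 and −0.47 in Cy5 and 1.73 in Cy3. The Cy5 arrays agreed closely with each other (median SD 0.157 over the members, beside 0.154 over all features), while the SD of the Cy5 minus Cy3 difference was 0.912 over the members and 1.06 over all features. Dye, RNA isolation (replicate 4 had another reagent) and array effects cannot be told apart between the orientations.

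The cytosolic ribosome has a protein set of its own. Its 129 features of 73 genes had medians of 1.11 in Cy5 and 0.218 in Cy3. There were 11 higher and 0 lower calls (8.53% called, beside 7.66% of all features, with 3.08% higher and 4.58% lower). An unadjusted p below 0.05 was found for 40 of the 129, beside 20% of all features. With a dye term limma called 90 higher and 3 lower (72.1%, beside 45.1% of all features). For these features the orientations differed in 64.3%, beside 40.7% of all features. Of those that differed, the Cy5 mean was above the Cy3 score in 67 and below it in 16. The shares over all features were 20% above and 20.7% below. The mitochondrial set had 24 above and 45 below. The orientations correlated at −0.061 across cytosolic features, beside 0.511 for the mitochondrial set. The contrast between the sets was not tested.

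Other genes of mitochondrial translation were also read. The 11 measured genes of 12 translation factors (18 features) had medians of 0.142 in Cy5 and 0.348 in Cy3. There were 0 calls by limma, beside 7.66% of all features, which says little with so few features. An unadjusted p below 0.05 was found for 3 of the 18, beside 20% of all features. The 23 assembly factors (36 features) had 8.33% of features called, near the 7.66% of all features: 1 higher call, of the tRNA methyltransferase gene Trmt61b (1.45 ± 0.23, SE), and 2 lower, of the RNA helicase gene Ddx28 (−1.97 ± 0.37) and the rRNA methyltransferase gene Nsun4 (−1.14 ± 0.21). Of 9 features for mitoribosomal proteins with other symbols, 1 of Gadd45gip1 was called lower (−1.43 ± 0.27), or 11.1% of them, beside 7.66% of all features. The other Gadd45gip1 feature had an effect of 0.16 ± 1.55 and was not called. Both Chchd1 features were positive in all 4 profiles and not called (1.09 ± 0.25, adjusted p = 0.053, and 1.32 ± 0.33, adjusted p = 0.072, by limma). The median effect over the 9 features was 0.13. Genes of mitochondrial transcription and mRNA stability (15 features) had 0 calls by limma, beside 7.66% of all features. An unadjusted p below 0.05 was found for 2 of these 15, beside 20% of all features. The mitochondrially encoded ND4L, a subunit of complex I, was called higher (1.53 ± 0.30, adjusted p = 0.033), and COX2 was not (0.75 ± 0.58).

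Among 9 factors known to drive genes of mitochondrial proteins (24 features), limma called 3 features (12.5%, beside 7.66% of all features). All 3 calls were higher (3.08% of all features were called higher) and all were of Myc, a transcription factor of growth and ribosome genes. An unadjusted p below 0.05 was found for 5 of the 24, beside 20% of all features. The 3 Myc features had effects of 2.63 ± 0.22, 2.63 ± 0.24 and 3.53 ± 0.33 (SE), positive in all 4 profiles. The coactivator gene Ppargc1a was negative in all profiles at both of its 2 features, with effects of −0.51 and −1.05, and was not called. The genes of NRF1, the ETS factor GABPA and YY1 had 0 called features (limma). The Nrf1 feature 42485 came nearest, at 1.08 ± 0.24 (adjusted p = 0.051), while the other Nrf1 features had effects of 0.04 and 0.28. Whether any of these moved the members was not tested.

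**Figure D4:**
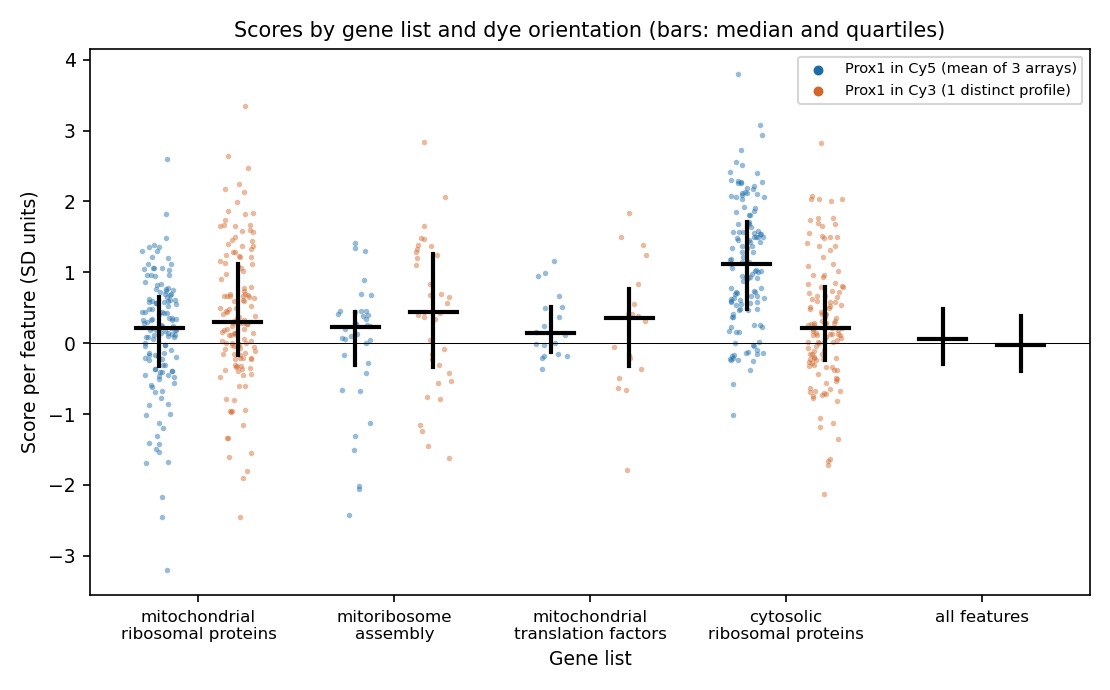
Score per feature (vertical, SD units) for the mitochondrial ribosomal proteins, 3 other gene lists and all features, with Prox1 in Cy5 (blue, mean of 3 arrays) left of Prox1 in Cy3 (orange, 1 distinct profile); black bars give the median and quartiles, and single points are omitted for all features. The mitochondrial set has medians of 0.217 and 0.299, and the cytosolic set 1.11 and 0.218.

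Many members sit beside a gene that starts in the opposite direction. For 24 of the 69 genes (34.8%) another protein-coding gene started upstream on the other strand within 1000 bases, beside 8.48% of all 17491. Mrpl46 of the large subunit and Mrps11 of the small subunit form such a pair, with starts 42 bases apart, so that they share this stretch, given on the Mrpl46 strand.
Mrpl46, chr7:78783090-78783130, minus strand: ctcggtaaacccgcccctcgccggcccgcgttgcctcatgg
Mrpl46 scored 0.65, 0.91 and 0.79 in Cy5 and 0.37 in Cy3, and Mrps11 scored 0.32, 0.22 and 0.47 in Cy5 and 1.12 in Cy3. Both were positive in all profiles and neither was called, with adjusted p-values of 0.26 and 0.23.

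Of the 22 pairs of a member with another gene, fitted effects were positive at all features of both genes in 7, negative at all in 1, opposite in 7, and mixed within a gene in 7. Signs were counted whatever their size, so effects near 0 count too. No count over other neighbouring genes stands beside these, so an excess of any kind cannot be read from them. Examples are Tmem63b (−0.02 ± 0.30, SE) in an opposite pair and a Cyb5rl feature (0.04 ± 0.22) in a positive one. Among the 35 features of these neighbours limma called 2, both lower, while 7.66% of all features were called. Mrps12 starts 147 bases from Sars2, which encodes mitochondrial seryl-tRNA synthetase; Sars2 scored −1.13, −1.14 and −0.94 in Cy5 and −1.09 in Cy3 and was called lower (effect −1.08 ± 0.23, adjusted p = 0.042), against the positive scores of Mrps12. Mrpl2, of the peptidyl transferase region, starts 141 bases from the kinesin light chain gene Klc4. Mrpl2 had an effect of 0.98 ± 0.24 (adjusted p = 0.067) and Klc4 one of −1.62 ± 0.28 (adjusted p = 0.022). Mrpl37 and Mrpl21, both called higher, start 128 bases from Cyb5rl and 32 bases from Ighmbp2, whose features were not called (effects of 0.04 and 0.36 for Cyb5rl and 0.36 for Ighmbp2). The differences within pairs were not tested.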

How the data were processed

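Each array compared RNA of Prox1 and empty vector cells. Per the labels' protocols, total RNA came from a column kit (Trizol for replicate 4) with DNase treatment, and cDNA was amplified by PCR short of saturation, a step that can distort ratios. The values the authors deposited are a score with an SD of 1 in every column. How arrays were scanned, corrected for background and normalized, and the log base, is not given in the sources used here. Signal over background could not be assessed, and few arrays limit the precision. The test planned for log ratios was run on the scores as deposited.

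The 3 identical Cy3 columns entered once. R 4.3.3 and limma 3.58.1 fitted all 41230 features with orientation as a random block (consensus correlation 0.796, 3 residual degrees of freedom), with Benjamini-Hochberg adjustment and a threshold of 0.05; code was tested on simulated data. Alternatives were a dye term, the Cy5 arrays alone, orientation means, identical columns as 3 arrays, centring, quantile normalization, gene means and leaving out each Cy5 array.

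Feature names came from the platform annotation, with all 78 member symbols present in RefSeq (31700 features had 1 symbol, 47 several, 9483 none). Genes named with values are all those called, landmark genes of the ribosome, the 3 whose features lie furthest apart and the 3 extremes of each orientation; others were chosen after their values were seen (Mrpl18, neighbours of divergent starts, and single genes of other lists). The members, lists and tests were chosen with earlier results of these data known.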

Additional observations from a re-analysis of the deposited data

How the results depend on the processing

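Against 12 features called higher and 6 lower, a dye term gave 60 and 20 (45.1% of all features called) and the Cy5 arrays alone 58 and 33 (58.2%), since both take their error from the Cy5 arrays; orientation means as 2 replicates gave 0 and 0, with a smallest adjusted p over all features of 0.13. Leaving out 1 Cy5 array, with the consensus correlation kept because 3 profiles give no estimate of it, left 2 to 7 higher and 4 to 5 lower, and kept 8, 12 and 6 of the 18 without replicate 1, 2 and 3. The 6 features called in each of these fits were those of Mrps15, Mrps17, Mrps35, Mrpl35, Mrpl38 and feature 19849 of Mrpl17. Identical columns as 3 arrays gave 15 and 8, centring 12 and 7, and quantile normalization 12 and 6. Gene means gave 8 and 3 of 78 genes. All 18 kept their sign under every alternative run on features, and stayed called with a dye term, Cy5 alone, 3 Cy3 arrays, centring and quantile normalization. The count of members whose orientations differ, 69, was 72 centred, 69 after quantile normalization and 59 to 61 without 1 Cy5 array. The median in Cy5, 0.217, was 0.160 centred, 0.294 over gene means and 0.211 to 0.253 without 1 array; that in Cy3, 0.299, was 0.319 centred and 0.377 over gene means. With the Cy5 arrays alone 10 of the 132 members (7.58%, beside 5.77% of all features) took the other sign and were called, 8 turning negative and 2 positive; among them were feature 13478 of Mrpl44 (−0.31) and feature 17541 of Mrps18b (−0.31), and that fit leaves out their Cy3 scores of 1.22 and 0.65. None of these 10 was called in the fit with the random block, and no other alternative run on features turned and called a member. No paired analysis was possible because the Cy3 orientation has 1 distinct profile, and the orientations share no replicate number.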
